A study of Mus musculus with 6 samples.

Results

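The long noncoding RNAs Malat1, Neat1, Kcnq1ot1 and Miat stay in the nucleus after they are made. These 4 genes were looked up by their mouse Ensembl identifiers in a table of RNAseq normalized counts for 16018 genes of the heart. Malat1, Neat1 and Kcnq1ot1 each had a row, so 3 of the 4 genes are described. Miat had no row and was not analysed here.

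The hearts came from 3 female WT mice and 3 female NBCe1-B/C KO mice (KO) between 4 and 5 weeks of age, 1 library per mouse, all on a C57BL/6J background and bred from heterozygous parents. KO mice lack the B and C variants of the sodium-bicarbonate cotransporter NBCe1 in all tissues from conception, while the A variant of the same gene, Slc4a4, is intact, and WT mice carry no engineered allele. The comparison asks how the cardiac transcriptome differs when these base-importing variants are absent.

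Malat1 is concentrated at nuclear speckles, the bodies where splicing factors are stored, and it is among the most abundant noncoding RNAs of most tissues. Neat1 is the scaffold of paraspeckles: its long form holds a shell of RNA-binding proteins together, and its short form shares the same 5′ end. Kcnq1ot1 is transcribed from the paternal chromosome, antisense to the potassium channel gene Kcnq1, and represses neighbouring imprinted genes on that chromosome.

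In the GENCODE M21 annotation (GRCm38), Malat1 (ENSMUSG00000092341) lies at chr19:5795690-5802672 on the minus strand as a long intergenic RNA of 6983 nt. Neat1 (ENSMUSG00000092274) lies 22035 bases away at chr19:5824708-5845478, also on the minus strand, with a long form of 20771 nt and a short form of 3004 nt. Kcnq1ot1 (ENSMUSG00000101609) is a single antisense transcript of 93092 nt at chr7:143203458-143296549 on the minus strand. It lies wholly inside Kcnq1, which is on the plus strand at chr7:143106362-143427042, and overlaps 1 of the 25 annotated Kcnq1 exons.

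The 3′ ends are shown because they bear on how these RNAs enter a sequencing library if it is made by poly(A) selection. Whether it was is not given in the sources used here. The short Neat1 form and Kcnq1ot1 end near a polyadenylation signal. The long Neat1 form and mature Malat1 are instead cut by RNase P in front of a tRNA-like structure. Both end in a genome-encoded A-rich tract that forms a triple helix. The first pair gives the last 60 bases of each transcript, read 5′ to 3′ on the minus strand of GRCm38, with the polyadenylation signal AATAAA in capitals, at chr19:5842307-5842366 for the short Neat1 form and chr7:143203458-143203517 for Kcnq1ot1.
Neat1 short form end: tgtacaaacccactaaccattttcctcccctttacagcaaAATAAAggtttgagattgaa
Kcnq1ot1 end: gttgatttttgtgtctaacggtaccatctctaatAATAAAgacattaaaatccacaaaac

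The second pair gives the 80 bases that end with the A-rich tract, with its last 11 bases AAAAAGCAAAA in capitals, at chr19:5824708-5824787 for the long Neat1 form and chr19:5795982-5796061 for Malat1.
Neat1 long form end: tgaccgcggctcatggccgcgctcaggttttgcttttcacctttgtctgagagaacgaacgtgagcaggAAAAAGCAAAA
Malat1 tract: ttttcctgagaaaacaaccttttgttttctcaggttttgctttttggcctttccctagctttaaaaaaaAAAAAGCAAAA

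Aligned with each other, these 2 ends had 49 identical bases among 64 aligned pairs. The same 11 letters occurred in the last 100 bases of 14 of the 15940 longest transcripts searched (0.0878%, sense strand only), against 58.9% for AATAAA. The last pair gives the tRNA-like sequence that follows each cut: the annotated small RNA gene Gm27702, next to the Neat1 end at chr19:5824652-5824707, and the 60 bases after the Malat1 tract at chr19:5795922-5795981, which the annotation still counts as Malat1.
Gm27702: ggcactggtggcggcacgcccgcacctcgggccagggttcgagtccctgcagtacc
Malat1 after the tract: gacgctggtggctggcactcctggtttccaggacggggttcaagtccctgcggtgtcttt

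Of 56 aligned pairs, 40 bases were identical. The annotated Malat1 transcript goes on for 292 bases after the tract and ends at another AATAAA, and the long Neat1 form ends on the tract itself. No small RNA gene inside or next to the 3 genes had a row in the table, so the tRNA-like products were not measured here.

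Recovered reads on genes numbered 42619258 to 49100802 in KO and 41364857 to 42037397 in WT libraries, and mitochondrial genes took 18.1 to 20.9% of them. Slc4a4, the targeted gene, was listed in the 3 KO libraries at 264, 945 and 269 normalized counts and in the 3 WT libraries at 675, 822 and 789, in replicate order. The library labelled KO replicate 2 was above every WT library, so that the targeted gene's level goes against its label. Gene-level reads cover all variants, although NBCe1-A is known as a kidney variant and NBCe1-B as that of the heart, and the deleted part of the gene is not given in the sources used here. Results are therefore given with and without that library where it decides them. In bulk heart RNA, fewer cells of a type and less RNA per cell cannot be told apart.

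Malat1 and Neat1 were present at high levels in every heart, and neither differed between KO and WT beyond the spread between replicates. Kcnq1ot1 was low in all 6 hearts and varied most among KO libraries. All 3 mean levels were lower in KO, at 0.888 (Malat1), 0.874 (Neat1) and 0.812 (Kcnq1ot1) times the WT mean, and none of the 3 passed the test. Across all genes tested, 50.8% had a log2 fold change below 0.

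Values are given in the order of replicates 1, 2 and 3 from here on. The Malat1 level was 30308, 36267 and 31106 normalized counts in KO hearts and 40866, 32527 and 36610 in WT hearts. WT replicate 1 was the highest and KO replicate 1 the lowest, and KO replicate 2 lay between WT replicates 2 and 3, so the groups overlapped. The means were 32561 ± 3235 in KO and 36668 ± 4170 in WT (SD, n = 3 each). Malat1 had a log2 fold change of -0.17 with a standard error of 0.11 and a 95% interval from -0.41 to 0.07 (limma, adjusted p = 0.367, Benjamini-Hochberg). By the exact two-sided permutation test, p was 0.2, and 3 libraries against 3 cannot give less than 0.1. Counting error was 0.538% of the Malat1 count, far below the coefficient of variation of 9.93% among KO and 11.4% among WT replicates, so depth did not limit this comparison.

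The Neat1 level was 14912, 17958 and 20548 normalized counts in KO hearts and 19726, 18407 and 23000 in WT hearts. KO replicates 1 and 2 were below every WT library, while KO replicate 3 exceeded 2 of the 3. The means were 17806 ± 2821 in KO and 20378 ± 2364 in WT (SD, n = 3 each). Neat1 had a log2 fold change of -0.20 with a standard error of 0.13 and a 95% interval from -0.49 to 0.08 (limma, adjusted p = 0.370), and the exact permutation test gave p = 0.4. Counted per gene, the reads do not separate the long from the short form, so a change in 1 form against the other could not be seen here.

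The Kcnq1ot1 level was 89.3, 231 and 138 normalized counts in KO replicates 1, 2 and 3, from 90, 223 and 156 reads. In WT replicates 1, 2 and 3 it was 195, 177 and 193, from 190, 170 and 187 reads. The library labelled KO replicate 2 was above all WT libraries, and the other KO libraries were below all of them. The means were 153 ± 71.7 in KO and 188 ± 9.87 in WT (SD, n = 3 each), a coefficient of variation of 46.9% against 5.25%. Counting error alone is 7.68% at this depth, so the WT libraries lay within it and the KO libraries did not. The log2 fold change of Kcnq1ot1 was -0.40 with a standard error of 0.29 and a 95% interval from -1.07 to 0.26 (limma, adjusted p = 0.441), with p = 0.4 in the exact permutation test.

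**Figure D1:**
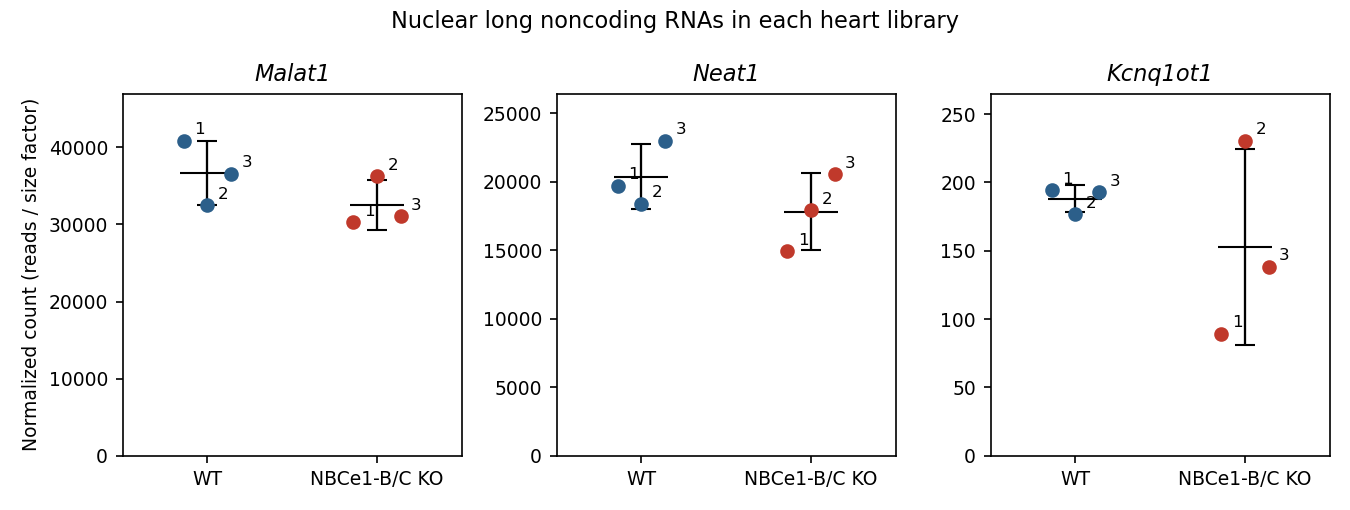
Normalized counts (reads divided by the size factor of the library, linear axes from 0) of Malat1, Neat1 and Kcnq1ot1 in each heart; points are libraries with their replicate number, and bars are the group mean ± SD (n = 3). KO replicate 1 is the lowest point of all 6 in each panel, and the KO points of Kcnq1ot1 run from 89.3 to 231 while its WT points stay between 177 and 195.

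KO replicate 1 held the lowest value of all 6 libraries for each of the 3 RNAs. Without it, the log2 fold changes were -0.12 for Malat1, -0.08 for Neat1 and -0.07 for Kcnq1ot1, so most of the difference in Neat1 and Kcnq1ot1 rested on that library. Malat1 stood at -0.09 without WT replicate 1 and at -0.25 without WT replicate 2, on the same scale. Without KO replicate 3, Neat1 stood at -0.31 (limma, adjusted p = 0.182). The highest library exceeded the lowest by 1.35 times for Malat1, 1.54 times for Neat1 and 2.58 times for Kcnq1ot1. KO replicate 1 also had the highest mitochondrial share, at 20.9%. Among adipocyte markers, the fat hormone gene Adipoq was lowest in it as well. Adipoq was at 15.9 normalized counts there, against 248 to 569 in the other KO and 204 to 532 in WT libraries. The summed level of the 9 of 10 adipocyte markers with a row ran from 17810 to 30196 in KO and from 28036 to 34332 in WT. All 9 had a log2 fold change below 0, with a median of -1.14, and of -1.59 without the library labelled KO replicate 2. The groups of 1 of them did not overlap (14.6% of all genes were lower without overlap), and none passed the adjusted threshold. All 10 cardiomyocyte markers had a row, and their summed level was 2997186 to 3324707 in KO and 2709478 to 2794643 in WT hearts. The gap in that sum was mostly that of Myh6, the alpha myosin heavy chain gene, at 1159410 ± 89542 normalized counts in KO and 792350 ± 67351 in WT (SD, n = 3 each). Of the 10 markers, 5 had a log2 fold change above 0 and 5 below, with a median of 0.00. The groups of 3 higher and 3 lower markers did not overlap, as was so for 15.6% (higher) and 14.6% (lower) of all genes. The summed level of 10 endothelial markers was 56916 to 61482 in KO and 53595 to 55264 in WT, with a median log2 fold change of 0.14. Their groups did not overlap in 4 higher and 1 lower marker (15.6% and 14.6% of all genes). The part of these differences in the levels of the nuclear RNAs was not tested.

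Without the library labelled KO replicate 2, Kcnq1ot1 had a log2 fold change of -0.75 with a 95% interval from -1.23 to -0.27. Its unadjusted limma p was then 0.00693 and its adjusted p 0.136, where 8.92% of all genes were lower in KO at an unadjusted p under 0.05. Both remaining KO libraries lay below every WT library, as was so for 19.4% of all genes in the same set of 5 libraries. Malat1 stood at -0.25 (limma, adjusted p = 0.243) and Neat1 at -0.21 (limma, adjusted p = 0.447) on the log2 scale without that library. For Malat1 too, the remaining KO libraries, at 30308 and 31106 normalized counts, lay below every WT library, the lowest being at 32527. The same 19.4% of all genes applies to it, and the groups of Neat1 still overlapped.

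Expressed as a share of each library's reads, which does not depend on a size factor, Malat1 took 630, 823 and 714 RPM (reads on the gene among 1000000 reads on all genes) in KO hearts and 949, 754 and 858 in WT hearts. Neat1 took 310, 408 and 472 RPM in KO and 458, 427 and 539 in WT. Kcnq1ot1 took 1.86, 5.23 and 3.18 in KO and 4.52, 4.10 and 4.52 in WT. On this scale KO replicate 1 was again lowest for all 3 RNAs, and the groups again overlapped. For Malat1 and Kcnq1ot1 they overlapped only through the library labelled KO replicate 2. The 95% Wilson intervals were narrow for Malat1 (623 to 638 RPM in KO replicate 1) and cover counting error only. Mean shares were 723 ± 96.6 and 854 ± 97.6 RPM for Malat1 in KO and WT (exact permutation p = 0.2), 397 ± 81.4 and 475 ± 58.1 for Neat1 (exact permutation p = 0.3) and 3.42 ± 1.70 and 4.38 ± 0.245 for Kcnq1ot1 (exact permutation p = 0.4; SD, n = 3 each). After Benjamini-Hochberg adjustment over the 3 genes, each exact permutation p was 0.4.

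Among the genes of the table, Malat1 ranked 125 of 16018 by mean normalized count and second among 1173 long noncoding RNA genes, after Gm42418. Neat1 ranked 239 and next after Malat1 among long noncoding RNA genes, and Kcnq1ot1 ranked 10971 and 196. Together the 3 RNAs took 14.7% of the reads on long noncoding RNA genes, which as a class took 0.832% of all reads on genes. Both shares include Gm42418, whose mean of 125731 normalized counts was far above the 34614 of Malat1, and depend on counting it in the class. Malat1 alone was 0.0785% of all reads, Neat1 0.0433% and Kcnq1ot1 0.000386%.

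Per length of the longest transcript, the mean level was 4957 normalized counts per kb for Malat1, 919 for Neat1 and 1.83 for Kcnq1ot1. Malat1 ran from 4340 to 5852 per kb over the 6 libraries, Neat1 from 718 to 1107 and Kcnq1ot1 from 0.959 to 2.48, so no neighbours in this order overlapped. The order of Malat1 and Neat1 depends on the Neat1 form. If all Neat1 reads came from the short form, its mean would be 6355 per kb with libraries from 4964 to 7656, which overlaps Malat1.

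Within a library, Malat1 outnumbered Neat1 by 2.03, 2.02 and 1.51 times in KO hearts and by 2.07, 1.77 and 1.59 times in WT hearts, in counts not scaled to length. The log2 ratio was 0.878 ± 0.243 in KO and 0.848 ± 0.191 in WT (SD, n = 3 each), a difference of 0.03 (exact permutation p = 1). That difference was far smaller than either SD. The log2 ratio of Malat1 to Kcnq1ot1 differed by 0.23 and that of Neat1 to Kcnq1ot1 by 0.20 between KO and WT (exact permutation p = 0.6 for each, 0.9 after adjustment over 3 pairs). Without KO replicate 1 these differences were -0.04, -0.05 and -0.01. The difference for Malat1 to Neat1 was also below 0 without KO replicate 2, at -0.04, and without WT replicate 3, at -0.06.

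Kcnq1 encodes the alpha subunit of the slow delayed rectifier potassium channel, and its reads could be mixed with those of Kcnq1ot1 where the 2 genes overlap, since a strand setting for the counting is not given in the sources used here. Kcnq1 was at 3771, 2970 and 3374 normalized counts in KO hearts and at 3226, 3070 and 3077 in WT hearts. Among the KO libraries, its order was the reverse of that of Kcnq1ot1, while the WT libraries ran in the same order for both genes. Over all 6 libraries, KO replicate 1 was highest for Kcnq1 and lowest for Kcnq1ot1. KO replicate 2 was lowest for Kcnq1 and highest for Kcnq1ot1. Over the 6 libraries, Pearson's r was -0.96 (exact permutation p = 0.0167, 0.05 after adjustment over the 3 RNAs) and Spearman's rho was -0.77 (exact permutation p = 0.103, adjusted 0.308). Without KO replicates 1 and 3, the libraries farthest from the median of Kcnq1, r was -0.52 over 4 libraries, so the relation rests largely on them. The 4 include the library labelled KO replicate 2, and r without that library is not given here. Malat1 and Neat1 each had an r of -0.58 with Kcnq1 (exact permutation p = 0.217 and 0.258). No r is given within a genotype, where 3 libraries would allow no useful test.

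**Figure D2:**
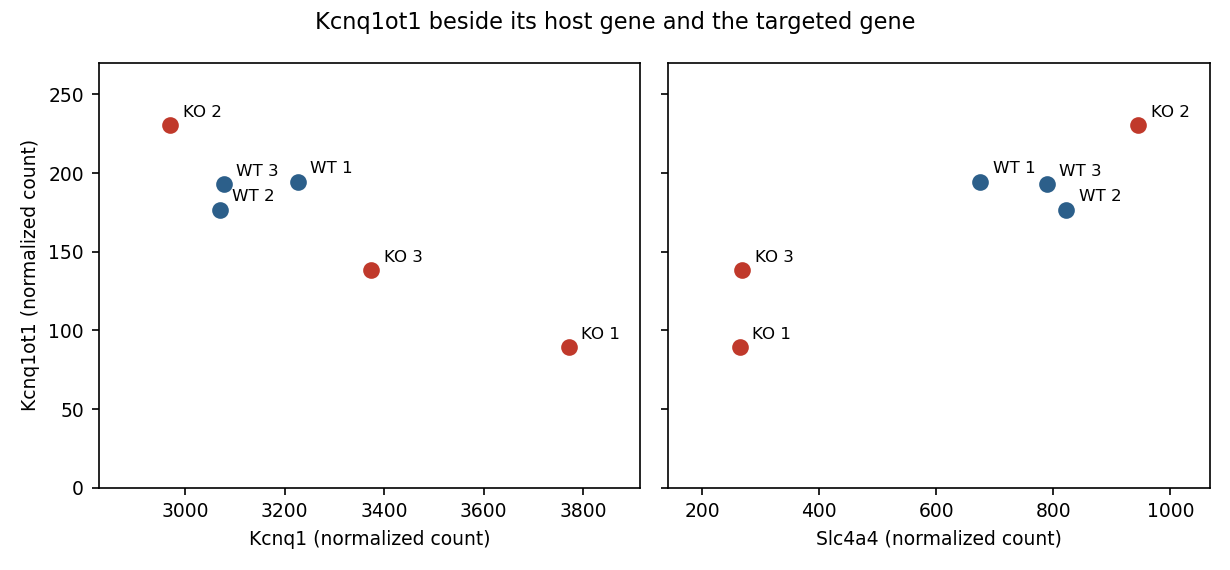
Kcnq1ot1 against its host gene Kcnq1 (left) and against the targeted gene Slc4a4 (right), in normalized counts on linear axes, 1 point per library; the horizontal axes do not start at 0. KO replicates 1 and 3 are low in Kcnq1ot1 and Slc4a4, and the library labelled KO replicate 2 is highest in both, at 231 and 945.

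Of 15 genes of the Kcnq1 imprinted domain, 13 had a row, and none passed the adjusted threshold. The maternally expressed growth inhibitor Cdkn1c was at 1217, 1331 and 1115 normalized counts in KO and 915, 1374 and 1102 in WT replicates 1, 2 and 3, with the groups overlapping and a log2 fold change of 0.13 ± 0.14 (SE; limma, adjusted p = 0.632). Kcnq1 itself stood at 0.10 ± 0.09 (SE; limma, adjusted p = 0.519) and the tetraspanin gene Cd81 at 0.05 ± 0.08 (SE; limma, adjusted p = 0.736). Tssc4, a U5 snRNP assembly factor, was the single member whose groups did not overlap. It was at 570, 602 and 580 normalized counts in KO and 870, 740 and 726 in WT, a log2 fold change of -0.41 ± 0.09 (SE), with an adjusted p of 0.0815 by limma and 0.0081 by DESeq2. The groups of 30.2% of all genes did not overlap. The median log2 fold change of the 13 genes was -0.01, against 0.00 for all genes tested.

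The fold changes of the whole table moved with the length of the longest transcript: longer genes had higher values in KO (Spearman's rho 0.45 across genes, which are no replicates of each other, as a description). Its median was -0.20 for genes under 1000 nt, 0.10 for 4276 genes from 4000 to under 7000 nt and 0.24 for 1330 genes of 7000 nt or more, of which 14.4% were lower in KO. The 3 nuclear RNAs are long by their longest transcript and were nevertheless lower on average. Of genes from 4000 to under 7000 nt, 11.4% lay at or below the log2 fold change of Malat1. Malat1, at 6983 nt, is at the upper edge of that range, and for genes of 7000 nt or more the share was 5.41%. Of genes of 7000 nt or more, 4.44% lay at or below the value of Neat1 and 1.88% at or below that of Kcnq1ot1. Among all genes tested, the shares at or below Malat1, Neat1 and Kcnq1ot1 were 25.3%, 21.9% and 7.23%. Among long noncoding RNA genes of 4000 nt or more, they were 31.0%, 26.5% and 9.73%.

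After each library was corrected for transcript length and GC content with splines, the log2 fold change was -0.33 for Malat1 (95% interval -0.61 to -0.05), -0.49 for Neat1 (-0.81 to -0.17) and -0.52 for Kcnq1ot1 (-1.08 to 0.05). Malat1 (unadjusted p = 0.0244) and Neat1 (unadjusted p = 0.00722) were then below 0.05 by limma before adjustment and Kcnq1ot1 (unadjusted p = 0.0702) was not, where 6.69% of all genes were lower in KO at that level. None passed after adjustment over all genes, with adjusted limma p of 0.295, 0.253 and 0.379. For Neat1, the correction used the 20771 nt of the long form. The short form of 3004 nt, from which reads may also come, falls in the range from 2000 to under 4000 nt. The 6316 genes of that range had a median log2 fold change of -0.03 before correction, and 55.7% were lower in KO. The correction is least sure for Neat1 and Kcnq1ot1: counting the RNA itself, 1340 genes were as long as Malat1 or longer, but 15 as long as Neat1 and 3 as long as Kcnq1ot1. Of the 15, 12 were higher in KO and 3 lower, 2 of which were Neat1 and Kcnq1ot1 themselves. Of 113 long noncoding RNA genes with 4000 nt or more, 65 were lower in KO, with a median log2 fold change of -0.05. With the correction, the median of that class was -0.13, so it too stood lower.

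**Figure D3:**
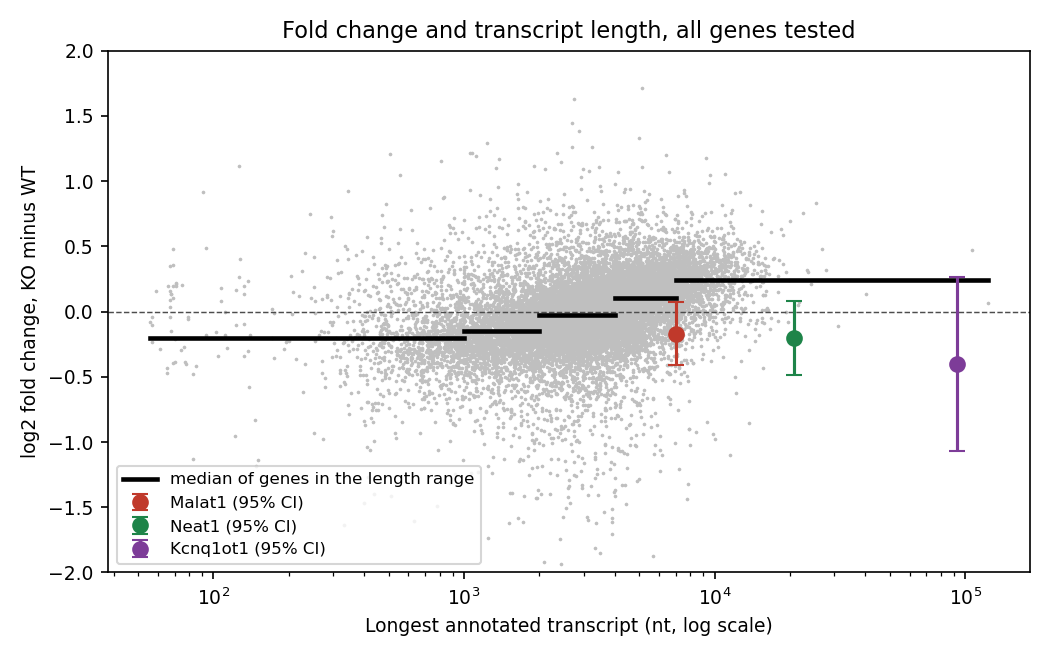
Log2 fold change (KO minus WT) against the length of the longest annotated transcript (log axis) for 15978 genes (grey; 1 gene lies beyond the vertical axis), with the median of each length range in black and the 3 nuclear RNAs with their 95% intervals in color. The black steps climb from -0.20 to 0.24, and Malat1, Neat1 and Kcnq1ot1 lie below the step at their length, each with an interval that includes 0.

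The proteins that Malat1 and Neat1 gather were measured in full, with 30 of 30 genes for nuclear speckle proteins and 25 of 25 for paraspeckle proteins. No gene of either list passed the adjusted threshold, as was so for all 16016 genes tested with limma. At an unadjusted limma p under 0.05 were 23.5% of all genes, 10.5% lower and 13% higher in KO, and with edgeR 24% of all genes. With DESeq2, 5.03% of the genes given an adjusted p were called lower and 8.22% higher in KO.

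Among nuclear speckle genes, 9 were lower and 2 higher at that level, the groups of 9 lower and 3 higher genes did not overlap (background 14.6% and 15.6%), and the median log2 fold change was -0.07. Son and Srrm2, the scaffolds of the speckle, stood at 0.08 ± 0.07 and 0.08 ± 0.08 (log2 fold change, SE), and the splicing factor gene Srsf5 at 0.06 ± 0.08. Srsf3, another splicing factor of the same family, was the lowest by p: it had a log2 fold change of -0.28 ± 0.07 (SE), with an adjusted p of 0.0902 by limma and 0.0180 by DESeq2. DESeq2 called Srsf2 (-0.24) and Srsf7 (-0.33, log2 fold change) too, which were named after their values were seen. With the length and GC correction, the list had a median of -0.12.

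Among paraspeckle genes, 4 were lower and 1 higher at an unadjusted limma p under 0.05, and the median log2 fold change was -0.01. The groups of 4 lower and 4 higher genes did not overlap, near the background of 14.6% and 15.6% of all genes. The essential paraspeckle proteins Nono and Sfpq, named outside the rule for their role, stood at -0.05 ± 0.06 and -0.06 ± 0.08 (log2 fold change, SE). Among the most abundant genes of the list were those of the RNA-binding proteins Hnrnpk, at 0.13 ± 0.06, and Hnrnpa1, at 0.05 ± 0.07. Srsf10, a splicing regulator, had a log2 fold change of -0.32 ± 0.07 (SE), with an adjusted p of 0.0815 by limma and 0.0073 by DESeq2. Smarca4, a chromatin remodeller, was higher at 0.24 and was called by DESeq2 (adjusted p = 0.0455).

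Subunits of RNase P, which cuts the ends of the long Neat1 form and mature Malat1, were listed with genes of tRNA 3′ nucleases. The list also held Mettl16, which binds the Malat1 triple helix. All 14 had a row, 12 had a log2 fold change below 0, and the median was -0.18. The groups of 4 genes did not overlap, all lower in KO (14.6% of all genes), and none passed the adjusted threshold. Pop5, an RNase P subunit, was lowest by p at -0.39 ± 0.08 (log2 fold change, SE), with an adjusted p of 0.0815 by limma and 0.0071 by DESeq2. The tRNA nuclease gene Elac2 stood at 0.14 ± 0.08 and Rpp14 at -0.09 ± 0.07. With the length and GC correction, the median of these genes was -0.02.

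Chromatin factors through which Kcnq1ot1 is known to silence genes were measured in 9 of 9 cases, with a median log2 fold change of -0.02. The H3K9 methyltransferase genes Ehmt2 and Ehmt1 stood at -0.02 ± 0.07 and 0.12 ± 0.07 (SE), and Ezh1, a catalytic subunit of Polycomb complex 2, was highest at 0.19 ± 0.08 (limma, adjusted p = 0.181). For Miat, which had no row, the 3 splicing factors reported to bind it had log2 fold changes from 0.08 to 0.70. Qk, the lowest of them by p, stood at the median of 0.31 ± 0.09 (SE; adjusted p of 0.107 by limma and 0.0195 by DESeq2). Celf3 had a mean of 13.6 normalized counts.

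**Figure D4:**
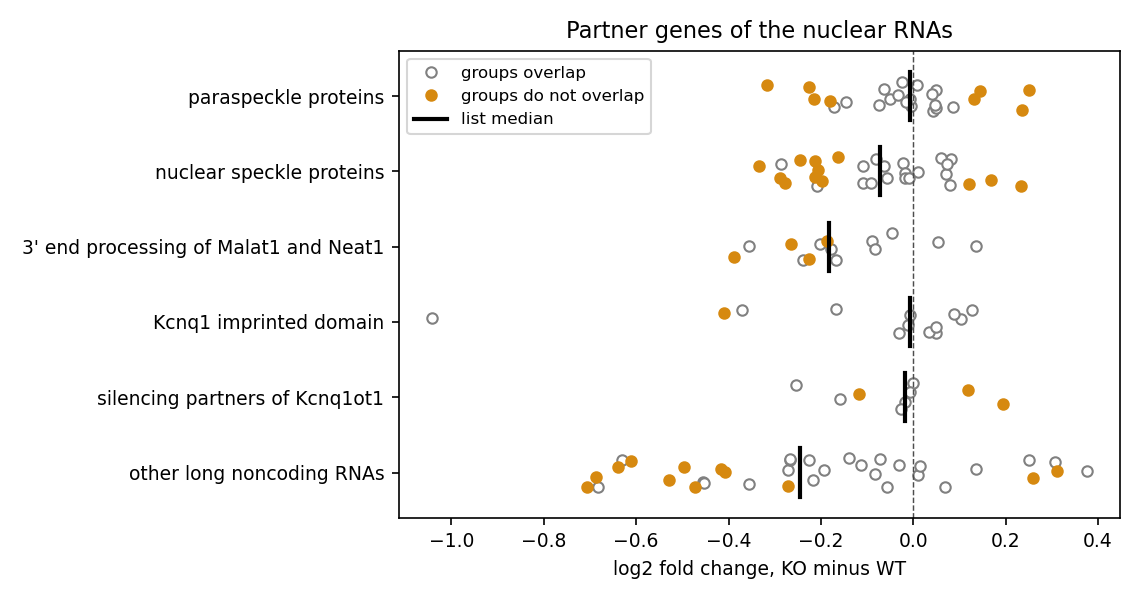
Log2 fold change (KO minus WT) of the measured genes in 6 lists tied to the nuclear RNAs, 1 point per gene; filled points are genes whose KO and WT libraries do not overlap, and black lines are list medians. Medians run from -0.25 for other long noncoding RNAs to -0.01 for paraspeckle proteins and the Kcnq1 imprinted domain.

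Of 47 other well-known long noncoding RNAs, 36 had a row. None passed the adjusted limma threshold, and at an unadjusted p under 0.05, 10 were lower and 2 higher in KO, and the same numbers had groups that did not overlap (14.6% and 15.6% of all genes). The median log2 fold change was -0.25, again -0.25 when corrected for length and GC, and -0.36 without the library labelled KO replicate 2. The most abundant were the X-inactivation RNA Xist, at -0.07 ± 0.13 (log2 fold change, SE), the imprinted RNA H19, at 0.14 ± 0.37, and the imprinted RNA Peg13, at 0.31 ± 0.10. Snhg20, a host of small nucleolar RNAs, was lowest by p at -0.64 ± 0.16 (SE; adjusted p of 0.0850 by limma and 0.0139 by DESeq2).

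Over all 1172 long noncoding RNA genes tested, a class formed after the data had been seen, 705 were lower in KO (60.2%). Their median log2 fold change was -0.09, and 0.01 when corrected for length and GC. At or below the log2 fold change of Malat1 were 39.1% of them, of Neat1 35.9% and of Kcnq1ot1 14.6%.

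RNAs without a poly(A) tail were few in the table. Of 9 small noncoding RNAs looked up, the polymerase III transcripts Rn7sk, Rmrp and Rpph1 had rows, at means of 262, 41.0 and 36.9 normalized counts, with log2 fold changes of -0.23, -0.47 and -0.35 and overlapping groups. Of 70 replication-dependent histone genes, whose mRNAs end without a tail, 19 had rows. At an unadjusted limma p under 0.05, 6 were lower and none higher in KO (10.5% and 13% of all genes), with none past the adjusted threshold. Whether the libraries were made by poly(A) selection is not given in the sources used here.

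Neighbours of Malat1 within 200 kb numbered 20, of which the groups of 4 did not overlap, all lower in KO, where 14.6% of all genes were lower without overlap. Of the 20 genes within 200 kb of Neat1, most of them shared with Malat1, this held for 3. Ehbp1l1, the most abundant neighbour of both, stood at 0.11 ± 0.10 (log2 fold change, SE) and Ltbp3 at 0.09 ± 0.06. Rnaseh2c (-0.27 ± 0.10), within 200 kb of Malat1, and Sipa1 (-0.33 ± 0.12), within 200 kb of both, were lowest by p, each with an adjusted limma p of 0.149. The median log2 fold changes of the neighbours were -0.10 for Malat1, -0.06 for Neat1 and -0.08 for the 8 genes around Kcnq1ot1, none of which passed the adjusted threshold.

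For each RNA, the genes with the most similar pattern over the 6 libraries were sought among 11913 genes, by the root-mean-square difference of log2 deviations from the gene's mean. Nearest to Malat1 were Hexdc (0.032), Sphk1 (0.035) and B9d2 (0.038). Among the nearest to Neat1 were Gabbr1 (0.020) and Itm2a (0.043). Gabbr1, which encodes a GABA-B receptor subunit, was at 463, 564 and 618 normalized counts in KO and 617, 570 and 711 in WT. Its lowest and highest libraries were those of Neat1, which follows from how it was chosen.

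Nearest to Kcnq1ot1 were Adamts4 (0.095), Zdhhc2 (0.10) and Nts (0.18). The matrix protease gene Adamts4 was at 86.3, 229 and 121 normalized counts in KO and 173, 178 and 164 in WT. Chosen for its likeness, it was likewise highest in the library labelled KO replicate 2. Between the RNAs themselves, the same measure was 0.18 for Malat1 and Neat1, 0.34 for Malat1 and Kcnq1ot1 and 0.36 for Neat1 and Kcnq1ot1.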

How the data were processed

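RNAseq of 3 KO and 3 WT hearts was analysed from the authors' deposited table of a normalized signal per gene: counts divided by a size factor, not scaled to length. The submitters' processing notes name Trimmomatic 0.36, STAR 2.5.2b, featureCounts (Subread 1.5.2), DESeq2 and GRCm38. The annotation, strand setting and treatment of shared reads are not given in the sources used here. Divided by the value of 1 read, 100% of values in each library were whole within 0.1 read. Genes with few reads were left out of the table (lowest mean 9.89).

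For KO against WT, log2(normalized count + 1) was fitted with limma 3.58.1 in R 4.3.3, a scale that understates changes of low genes, with a variance trend, two-sided and Benjamini-Hochberg adjusted at a threshold of 0.05, over the 16016 genes whose mean reached 10. limma made 0 calls (3764 at an unadjusted p under 0.05), edgeR 4.0.16 on the recovered reads 0 (3837), and DESeq2 1.42.0 1587 of the 11979 genes to which it gave an adjusted p (13.2%). Other alternatives were pseudocounts of 0.5 and 5, no filter or a mean of at least 50, rescaling, quantile normalization, no trend, sample weights, the replicate block, each library left out, and splines (5 degrees of freedom) in length and GC content. Single values had exact two-sided permutation tests. Tests were checked on simulated data.

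The members and lists were chosen with earlier results of these data known. Named genes are the members, Slc4a4, the Kcnq1 domain, up to 4 genes per list (highest mean and lowest p), neighbours within 200 kb and the 3 genes of at least 100 normalized counts most like each member; other genes were named after their values were seen, and some genes that meet the rule are not reported here. Nothing in the sources says more of the replicates than that each is a mouse. Positions and sequences are from GENCODE M21.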

Additional observations from a re-analysis of the deposited data

How the results depend on the processing

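Under 19 alternatives each, Malat1, Neat1 and Kcnq1ot1 stayed lower in KO and did not pass the adjusted threshold; with a library left out, the log2 fold change ran from -0.25 to -0.09 for Malat1, -0.31 to -0.08 for Neat1 and -0.75 to -0.07 for Kcnq1ot1. Adjusted p-values ran over all alternatives from 0.230 to 0.720, 0.182 to 0.745 and 0.136 to 0.895. Genes past the threshold numbered 0 with limma, 0 to 3 with a library left out (3 without KO replicate 2) and 1587 with DESeq2. DESeq2 also called 2 of 25 paraspeckle, 3 of 30 nuclear speckle, 1 of 14 3′-processing and 1 of 13 Kcnq1-domain genes. It called 1 of 3 Miat binders, 4 of 36 other long noncoding RNAs and 1 of 8 genes near Kcnq1ot1. Of histone and mitochondrial genes, it called 2 of 19 and 4 of 32. Among all genes given an adjusted p, DESeq2 called 13.2%, and not every listed gene was given one. limma called 0 of each list, and why the tools differ was not tested. With a library left out, the KO minus WT log2 ratio ran from -0.058 to 0.17 for Malat1 to Neat1, -0.048 to 0.50 for Malat1 to Kcnq1ot1 and -0.0063 to 0.54 for Neat1 to Kcnq1ot1, and the cause of the changed signs was not tested. The Pearson measure of likeness shared 1, 3 and 1 of the 3 nearest genes of Malat1, Neat1 and Kcnq1ot1.

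Replicate numbers 1, 2 and 3 name different mice. Deviations of same-numbered libraries from their group means correlated at 0.23, 0.07 and -0.03, and not every library correlated best with its own number, so the numbers were not taken as pairs. With the replicate block, 0 genes passed the threshold and 3924 had an unadjusted p under 0.05. The log2 fold changes under the block were -0.17, -0.20 and -0.40, with adjusted limma p of 0.384, 0.196 and 0.381. Depth adds to the uncertainty of Kcnq1ot1, with 90 to 223 reads per library. Its counting error of 7.68% was above its coefficient of variation in WT (5.25%) but far below that in KO (46.9%).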
